A study of Homo sapiens with 25 samples.

Results

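The regions described here were the peaks around 7 genes that set or mark the blood progenitor state: the transcription factor genes RUNX1, MYB, GATA2 and MEIS1, the receptor genes KIT and FLT3, and CD34. The members were all peaks, in any of the 23 deposited peak lists, that overlapped 1 fixed window per gene on the human build hg18. They numbered 1043 of 918840 peaks, or 0.114%, in windows that covered 1050 kb. The windows were RUNX1 chr21:35060001-35360000, MYB chr6:135400001-135600000, KIT chr4:55190001-55320000, FLT3 chr13:27460001-27590000, CD34 chr1:206110001-206170000, GATA2 chr3:129660001-129720000 and MEIS1 chr2:66500001-66670000.

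RUNX1, MYB and GATA2 encode DNA-binding regulators needed for blood stem and progenitor cells, and MEIS1 encodes a homeobox cofactor of HOX proteins that is active in many myeloid leukaemias. KIT and FLT3 are type III receptor tyrosine kinases that bind stem cell factor and FLT3 ligand, and CD34 is a surface sialomucin used to isolate progenitor cells. LSD1 is a demethylase of mono- and dimethylated lysine 4 of histone H3, and it is recruited as a corepressor by GFI1, a zinc-finger repressor. H3K4me1 marks enhancers and gene flanks, H3K4me3 marks promoters, H3K4me2 lies at both, and H3K27ac marks active enhancers and promoters.

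The cells were NB4, an acute promyelocytic leukaemia line that carries the PML-RARA fusion and matures in retinoic acid (RA). They had been exposed for 24 h to the LSD1 inhibitor MC_2580, to RA at 0.01 µM, to RA at 1 µM, to MC_2580 with RA at 0.01 µM (the combination), or to the vehicle DMSO. Chromatin immunoprecipitation sequencing covered H3K4me1, H3K4me2, H3K4me3 and H3K27ac in these 5 conditions, LSD1 with MC_2580 and in DMSO, and GFI1 in untreated cells. The dose of MC_2580 was not given in the sources used here. The title of the combination H3K4me3 sample named RA at 1 µM, while its treatment field named 0.01 µM, and the treatment field was followed. Each antibody and condition had 1 library of 1 cell line, so no difference below has a replicate check, a test or a p-value. Peak lists hold no expression levels, so the cell type could not be set against marker expression.

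A value called covered bases is the length of a window under at least 1 peak. A treatment was called higher or lower where its covered bases differed from those of DMSO by more than a fixed fold, the same in both directions: a ratio of 0.781 was called lower and one of 0.809 was not, and a ratio of 1.26 was called higher and one of 1.23 was not. Each ratio is read beside the same ratio over the whole list, since lists differed in total length: whole-list covered bases of H3K27ac were 95.28 Mb with MC_2580, 199.2 Mb with RA 0.01 µM, 142.5 Mb with RA 1 µM, 149.1 Mb with the combination and 127.4 Mb in DMSO. Peak scores are the authors' own, on a scale that rises with the peak caller's significance. They started at 50 (at 234 and 357 in the LSD1 lists of DMSO and of MC_2580) and piled up at 3100. They served to describe and rank peaks, to set alternative thresholds, and to name regions and sites by their highest score in any list. Whether scores of different lists share 1 scale is unknown. The sequencing depth of the libraries is unknown.

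No annotation of hg18 was used, so peaks were not assigned to promoters, exons or introns. The windows can hold parts of neighbouring genes, and which gene a peak belongs to was not determined. The nearest protein-coding genes in RefSeq (GRCh38.p14) are CLIC6 and SETD4 for RUNX1, HBS1L and AHI1 for MYB, PDGFRA and KDR for KIT, URAD and PAN3 for FLT3, CD46 and PLXNA2 for CD34, DNAJB8 and RPN1 for GATA2, and SPRED2 and ETAA1 for MEIS1.

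The core promoters below belong to the members whose H3K27ac or GFI1 values carry the results. All 7 genes had an entry in RefSeq, with 8 promoters because GATA2 had 2. Each line gives the 250 bases before the annotated start in GRCh38.p14, 5′ to 3′ on the gene's strand. The capitals mark a match to 1 of the motifs searched.
FLT3, chr13:28100577-28100826, minus strand: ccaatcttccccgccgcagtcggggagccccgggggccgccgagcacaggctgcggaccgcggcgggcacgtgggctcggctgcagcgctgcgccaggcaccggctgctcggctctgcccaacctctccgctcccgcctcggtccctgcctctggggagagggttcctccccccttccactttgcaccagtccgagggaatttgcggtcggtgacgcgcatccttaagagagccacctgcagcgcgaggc
CD34, chr1:207911126-207911375, minus strand: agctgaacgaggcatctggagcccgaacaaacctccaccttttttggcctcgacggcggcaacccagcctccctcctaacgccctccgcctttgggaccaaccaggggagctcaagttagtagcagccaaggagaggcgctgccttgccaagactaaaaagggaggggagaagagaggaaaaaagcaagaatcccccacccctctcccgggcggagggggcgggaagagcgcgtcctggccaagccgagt
MYB, chr6:135181058-135181307, plus strand: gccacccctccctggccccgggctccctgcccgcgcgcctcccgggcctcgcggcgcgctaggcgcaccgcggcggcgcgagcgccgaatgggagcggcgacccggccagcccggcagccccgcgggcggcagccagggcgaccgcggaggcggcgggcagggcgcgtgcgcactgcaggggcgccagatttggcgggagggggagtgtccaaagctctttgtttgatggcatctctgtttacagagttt
GATA2, upstream start, chr3:128493202-128493451, minus strand: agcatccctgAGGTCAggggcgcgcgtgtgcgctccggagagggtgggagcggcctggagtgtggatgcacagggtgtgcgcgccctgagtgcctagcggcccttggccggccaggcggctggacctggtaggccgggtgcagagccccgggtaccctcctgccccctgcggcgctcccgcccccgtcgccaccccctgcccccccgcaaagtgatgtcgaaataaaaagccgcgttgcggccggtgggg
GATA2, downstream start, chr3:128488531-128488780, minus strand: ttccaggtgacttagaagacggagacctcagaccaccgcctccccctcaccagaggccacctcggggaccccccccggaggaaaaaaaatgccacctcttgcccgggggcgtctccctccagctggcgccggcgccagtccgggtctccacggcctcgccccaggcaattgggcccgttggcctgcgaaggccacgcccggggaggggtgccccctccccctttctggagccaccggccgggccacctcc

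The motifs searched on both strands were the GFI1 core, the RUNX site TGTGGT, the GATA site AGATAA, the PU.1 site GAGGAAG, and the single site of nuclear receptors such as the RA receptors, AGGTCA. No matches overlapped. In the 8 promoters there were 2 matches: AGGTCA in the upstream GATA2 promoter, at -240 to -235 from the start, and TGTGGT in the MEIS1 promoter, at -169 to -164. Over 35116 promoters of this length, the GFI1 core was in 2.55%, the RUNX site in 11%, the GATA site in 9.17%, the PU.1 site in 11.2% and the nuclear receptor site in 12.1%. The members' promoters were rich in G and C, 59.6% to 76.4%, against a median of 58% over all promoters. A match is a description of letters and not of a bound site.

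In DMSO the windows fell into a densely and a sparsely marked group. H3K4me1 covered 51.1% of the RUNX1 window, 38.1% of CD34, 38% of MYB, 27.6% of FLT3 and 23.4% of GATA2, against 7.58% of MEIS1 and 7.21% of KIT. RUNX1 held 396 of the 1043 peaks, MYB 224, FLT3 159, GATA2 82, CD34 73, MEIS1 69 and KIT 40. LSD1 followed the same division: 5 windows had LSD1 peaks, and KIT and MEIS1 had none in either LSD1 list. H3K27ac in DMSO covered 74.9 kb of RUNX1 and 57.4 kb of MYB, against 5.80 kb of KIT and 1.75 kb of MEIS1. Most H3K27ac in DMSO lay on H3K4me1, for 91.1% of its bases at RUNX1, 85.8% at MYB, 93.5% at CD34 and 76.9% at FLT3, against 74.3% over the whole list. GATA2 was lower, at 50.4%.

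H3K27ac at FLT3 was higher in the 3 conditions with RA than in DMSO. The window held 28.0 kb with MC_2580, 42.3 kb with RA 0.01 µM, 52.5 kb with RA 1 µM and 58.7 kb with the combination, against 30.0 kb in DMSO. The ratios to DMSO were 0.934, 1.41, 1.75 and 1.95 in the same order, against 0.748, 1.56, 1.12 and 1.17 over the whole lists. FLT3 therefore stood above the whole-list ratio with RA 1 µM, by 0.64 on the log2 scale, and with the combination, by 0.74, and below it with RA 0.01 µM, by -0.15. The RA 0.01 µM call ended, at a log2 ratio of 0.11, when lists were cut to equal length. MC_2580, at -0.10 and not called, was called lower with a minimum score of 100 (-0.65) and higher with lists of equal length (0.40).

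Most of the FLT3 gain lay in 1 region. This region, chr13:27499447-27531655, was singled out after its values were seen. It held 16.2 kb of H3K27ac with MC_2580, 20.1 kb with RA 0.01 µM, 29.0 kb with RA 1 µM and 31.8 kb with the combination, against 13.9 kb in DMSO. In DMSO it was made of 3 separate peaks, and with the combination it was covered almost end to end. Another 2 regions met the rule for named regions, each called in DMSO and all 3 RA conditions and not with MC_2580. The first, chr13:27481052-27487290, held 2.28 kb with RA 0.01 µM, 4.00 kb with RA 1 µM and 6.20 kb with the combination, against 1.4 kb in DMSO. The second, chr13:27472285-27475799, held 2.92, 2.37 and 3.52 kb in those treatments, against 1.65 kb in DMSO.

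**Figure D1:**
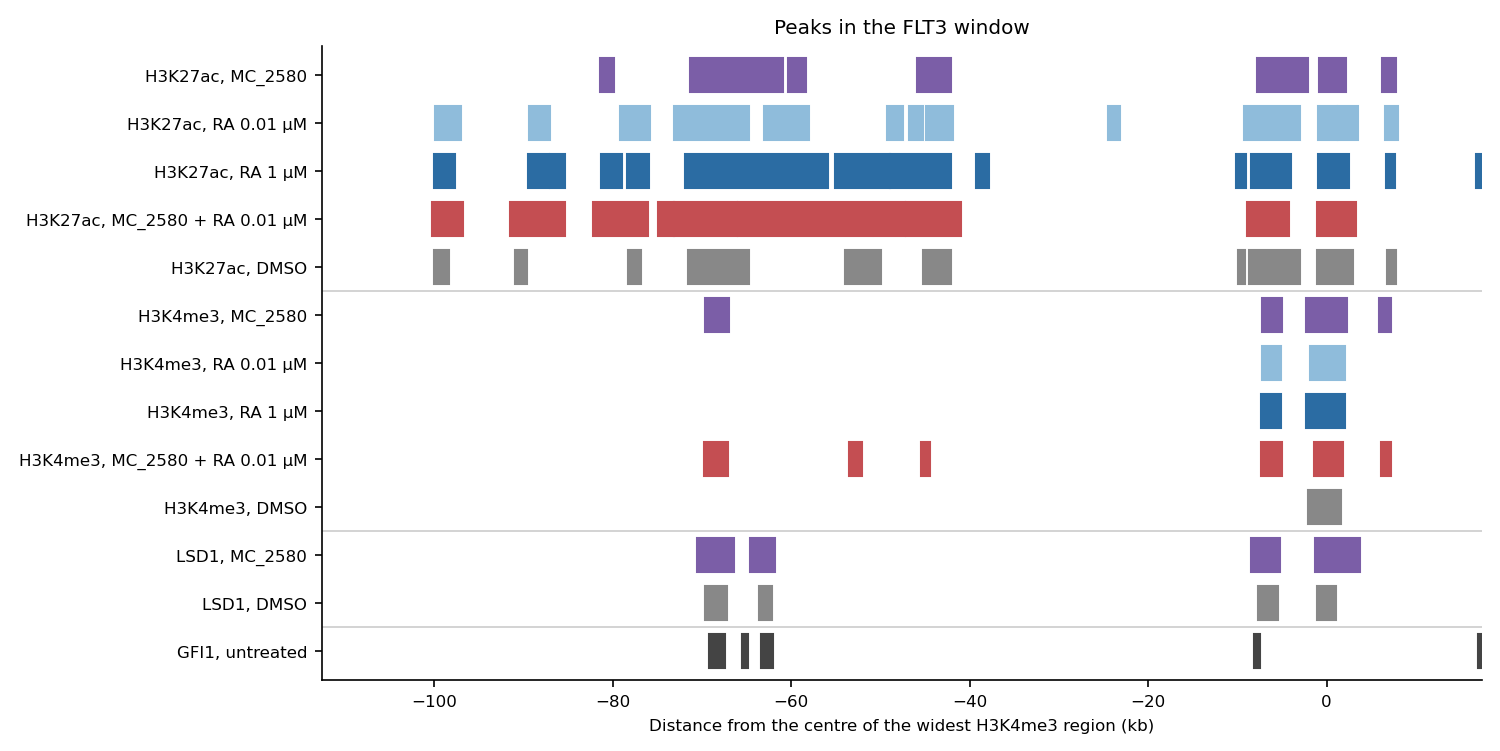
Peaks in the FLT3 window by antibody and condition (rows, DMSO last in each histone mark), as distance in kb from the centre of the widest H3K4me3 region, with bars drawn over the bases each peak covers. H3K27ac between about the LSD1 and GFI1 sites on the left and the middle of the window runs together with RA 1 µM and the combination (29.0 and 31.8 kb) and is broken up in DMSO (13.9 kb).

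A pair of FLT3 sites of LSD1 and GFI1 lay inside this region, the second with the highest GFI1 score of the window. The site chr13:27502059-27506187 had LSD1 with MC_2580 (score 1091) and in DMSO (610), with GFI1 in untreated cells (173.2). The site chr13:27508017-27510755 had LSD1 with MC_2580 (362.5) and in DMSO (639.4), with GFI1 (479.5). H3K4me1 overlapped both sites in all 5 conditions. H3K27ac overlapped the first site in all 5 conditions, and the second with each of the 4 treatments and not in DMSO. Its scores at the second were 82.43 with MC_2580, 176.6 with RA 0.01 µM, 2531 with RA 1 µM and 51.65 with the combination. Those with MC_2580 and the combination were below the alternative minimum score of 100, and the combination's was close to the floor of its list.

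H3K4me3 at FLT3 covered 11 kb with MC_2580, 5.99 kb with RA 0.01 µM, 6.60 kb with RA 1 µM and 12.1 kb with the combination, against 3.74 kb in DMSO. The widest region, chr13:27570245-27574908, was called in all 5 conditions at 4.66, 3.90, 4.37 and 3.33 kb in the treatments, in that order, against 3.74 kb in DMSO. Of 6 merged H3K4me3 regions, 2 were called with MC_2580 and the combination only, compared with 963 of 34471 regions over the whole lists. The first of these, chr13:27502874-27505632, overlapped the first LSD1 and GFI1 site, at scores of 88.06 with MC_2580 and 74.98 with the combination; the other, chr13:27578427-27579826, scored 119.7 and 71.64. These 2 regions were singled out after their values were seen. Their scores were close to the floor of 50, and the combination's log2 ratio of 1.69 for FLT3 turned to -0.17 with a minimum score of 100 and with lists of equal length. With MC_2580 it was 1.56, and 0.88 with lists of equal length.

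GATA2, in contrast to FLT3, had less H3K27ac with RA 1 µM and with the combination than in DMSO. Its H3K27ac covered 11.5 kb with MC_2580, 35.9 kb with RA 0.01 µM, 5.27 kb with RA 1 µM and 4.72 kb with the combination, against 20.1 kb in DMSO. The ratios to DMSO were 0.572, 1.79, 0.262 and 0.235, and only RA 0.01 µM was above DMSO. Relative to the whole lists the log2 differences were -0.39, 0.19, -2.09 and -2.32.

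The central GATA2 region, chr3:129691118-129699810, was called in every condition and was narrower in both: it held 7.10 kb with MC_2580, 8.69 kb with RA 0.01 µM, 3.48 kb with RA 1 µM and 4.72 kb with the combination, against 8.11 kb in DMSO. It was singled out after its values were seen. It carried the main GATA2 site of LSD1, chr3:129692426-129697777, at scores of 1080 with MC_2580 and 453.8 in DMSO, with 2 GFI1 peaks of up to 91.5. The widest GATA2 H3K4me3 region, chr3:129687771-129696240, overlapped the same site and was also called in every condition, at 8.44 kb with MC_2580, 8.21 kb with RA 0.01 µM, 6.33 kb with RA 1 µM and 5.64 kb with the combination, against 6.79 kb in DMSO.

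The size of the GATA2 difference depended on the window's edges. Narrowing the window by 10 kb at each end gave log2 ratios of -1.32 with RA 1 µM and -1.48 with the combination, against -1.93 and -2.09 as first measured. Keeping only H3K27ac peaks on H3K4me1 gave -1.10 for the combination and ended the MC_2580 call, at -0.29. A strong region at the right edge, chr3:129717966-129729029, was called in all 5 conditions but lay mostly past the window. Over its full length it held 10.2 kb with MC_2580, 5.85 kb with RA 0.01 µM, 4.48 kb with RA 1 µM and 5.59 kb with the combination, against 11 kb in DMSO.

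The wider H3K27ac of GATA2 with RA 0.01 µM included 5 gained peaks of 9, or 55.6%, close to the 53.9% of the whole list. Of these 5, 2 overlapped an H3K4me1 peak of any condition. Over the whole RA 0.01 µM list 35.5% of gained H3K27ac peaks did, against 64.4% with MC_2580, 69.7% with RA 1 µM and 67.5% with the combination. The named peak, chr3:129668623-129673164, was called with RA 0.01 µM only and scored 302.8. With lists of equal length the GATA2 log2 ratio for RA 0.01 µM was -0.21, against 0.84 with the full lists.

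**Figure D2:**
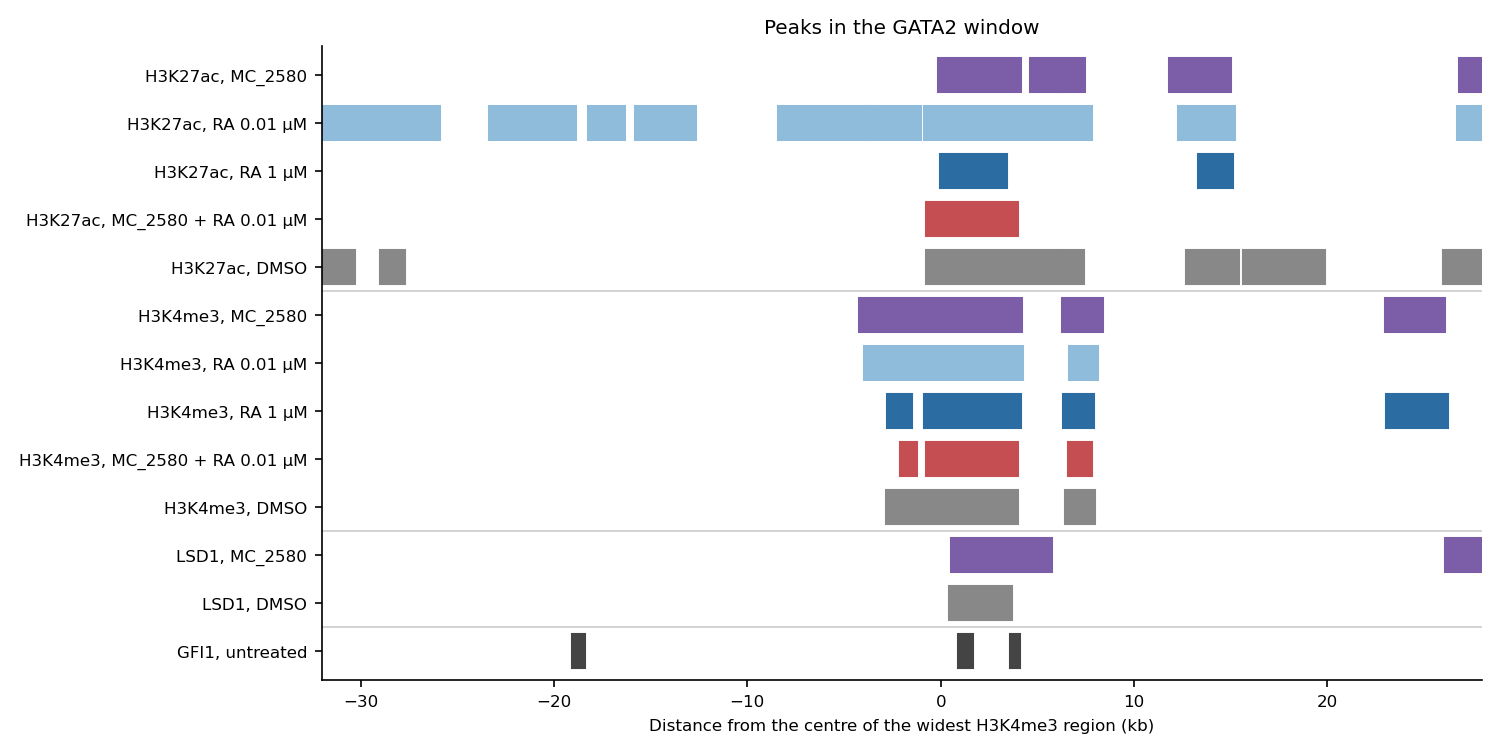
Peaks in the GATA2 window by antibody and condition (rows, DMSO last in each histone mark), as distance in kb from the centre of the widest H3K4me3 region, with bars cut at the window's edges. H3K27ac is reduced to 2 peaks with RA 1 µM (5.27 kb) and to 1 peak in the central region with the combination (4.72 kb), is spread widely with RA 0.01 µM (35.9 kb), and covers 20.1 kb in DMSO.

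CD34 also had less H3K27ac with RA 1 µM and with the combination. It covered 12.4 kb with MC_2580, 13.4 kb with RA 0.01 µM, 9.23 kb with RA 1 µM and 6.48 kb with the combination, against 17.2 kb in DMSO. All 4 values were called lower than DMSO, at ratios of 0.723, 0.781, 0.537 and 0.377, where the whole lists gave 0.748, 1.56, 1.12 and 1.17. The MC_2580 ratio was thus within a log2 difference of -0.05 of its list, while those of the 3 RA conditions were below theirs. The named region chr1:206141529-206146449 held 2.86 kb with MC_2580 and 1.36 kb with RA 0.01 µM and was not called with RA 1 µM or the combination, against 4.44 kb in DMSO, where it scored 319.4. Another region, chr1:206125887-206131979, singled out after its values were seen, held 2.84, 3.45, 2.03 and 1.60 kb in the treatments, in the same order, against 6.09 kb in DMSO.

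The size of the CD34 difference depended on the score threshold and the window. With a minimum score of 100 the log2 ratios were -1.97 with RA 1 µM and -2.30 with the combination, against -0.90 and -1.41 at the authors' threshold. With the window narrowed the combination gave -2.72. For RA 0.01 µM, whose log2 ratio was -0.36, the minimum score gave -1.14, lists of equal length gave -6.77, and the narrowed window gave -0.27, which was no longer called. An H3K27ac region at the left edge, chr1:206098864-206116724, was called in all 5 conditions but lay partly outside the window. Over its full length it held 16.9 kb with MC_2580, 10.7 kb with RA 0.01 µM, 13.1 kb with RA 1 µM and 13.6 kb with the combination, against 17.8 kb in DMSO. An H3K4me3 region at the same edge, chr1:206100836-206110198, was called in all 5 conditions but reached into the window with MC_2580 and RA 0.01 µM only. With RA 1 µM, with the combination and in DMSO it ended before the window began.

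MYB had less H3K27ac in all 4 treatments, called lower in the 3 with RA. It covered 52.1 kb with MC_2580, 32.8 kb with RA 0.01 µM, 44.8 kb with RA 1 µM and 37.2 kb with the combination, against 57.4 kb in DMSO. The ratios were 0.907, 0.572, 0.780 and 0.647, and relative to the whole lists the log2 differences were 0.28, -1.45, -0.52 and -0.85. The RA 1 µM call was lost, at a log2 ratio of -0.29, with a minimum score of 100 or lists of equal length. The named region chr6:135571567-135577646 held 6.06 kb with MC_2580 and 3.13 kb with RA 1 µM, and was not called with RA 0.01 µM or the combination, against 5.97 kb in DMSO.

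A MYB region called in every condition, chr6:135538458-135550107, was singled out after its values were seen. It held 11.7 kb of H3K27ac with MC_2580, 4.75 kb with RA 0.01 µM, 9.56 kb with RA 1 µM and 7.66 kb with the combination, against 10.9 kb in DMSO. The region contained the highest-scoring GFI1 peak of the 7 windows, chr6:135545098-135547311, at 1332, within an LSD1 site, chr6:135542830-135547269, that scored 1815 with MC_2580 and 1028 in DMSO. The widest H3K4me3 region of all windows, chr6:135541030-135565104, covered the same site and held 22.6 kb with MC_2580, 24.1 kb with RA 0.01 µM, 21.5 kb with RA 1 µM and 19.7 kb with the combination, against 18.4 kb in DMSO.

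H3K4me2 at MYB was called lower in the 3 conditions with RA. It covered 19.5 kb with MC_2580, 13.3 kb with RA 0.01 µM, 10.0 kb with RA 1 µM and 15.2 kb with the combination, against 20.3 kb in DMSO. The ratios were 0.959, 0.655, 0.494 and 0.749, against 1.05, 0.937, 0.919 and 1.08 over the whole lists. With RA 1 µM 47.6% of the DMSO bases were kept, a share that was not measured over the whole lists. By peaks, 6 of 12 DMSO peaks were lost with RA 1 µM, 50% (21.1% to 78.9%), against 19.5% over the list. The 6 lost peaks were weak, with scores of at most 140. The DMSO H3K4me2 list started at 50, and its MYB peaks reached 3100. With lists of equal length MC_2580 was called lower too, at a log2 ratio of -0.36. FLT3 and CD34 were lower as well with RA 0.01 µM (ratios 0.616 and 0.614) and RA 1 µM (0.594 and 0.556). With the combination FLT3 was at 1.01 and CD34 at 1.12, though FLT3 was at a log2 ratio of -0.49 with a minimum score of 100.

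RUNX1, which has the widest of the 7 windows, had the most bases under H3K27ac in every condition. They came to 60.7 kb with MC_2580, 48.7 kb with RA 0.01 µM, 64.8 kb with RA 1 µM and 70.0 kb with the combination, against 74.9 kb in DMSO. As a share of the window RUNX1 was highest in none: it had 16.2% with RA 0.01 µM, 23.4% with the combination and 25% in DMSO, where GATA2 had 59.9%, FLT3 45.1% and GATA2 33.5%. The ratio of 0.649 with RA 0.01 µM was called lower, against 1.56 over the whole list, and those of the other treatments, 0.810 to 0.935, were not. MC_2580 was called lower as well with a minimum score of 100, at a log2 ratio of -0.45. Close totals did not mean the same bases: with the combination 66.4% of the DMSO bases were kept, 25.2 kb were lost and 20.3 kb were gained. The share of bases kept was not measured over the whole lists. By peaks, 7 of 18 were gained with the combination, 38.9% against 37.1% over the list. Lost were 6 of 15 DMSO peaks, 40% (16.3% to 67.7%) against 21.2%.

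The lost and gained RUNX1 bases can be followed along the window. The regions chr21:35137366-35141314 and chr21:35261511-35265091 were called in the 3 conditions with RA only, with scores of up to 239.4 and 100.8, and both were singled out after their values were seen. This pattern was found in 2 of 24 merged RUNX1 regions, against 3491 of 64202 over the whole lists. The region chr21:35327926-35333626 held 1.34 kb with RA 0.01 µM, 3.66 kb with RA 1 µM and 2.26 kb with the combination and was not called with MC_2580, against 5.70 kb in DMSO. Its scores were 99.6, 190.9 and 64.69 in these treatments and 271.6 in DMSO. Of its neighbours, chr21:35304823-35307483 was called with MC_2580 and in DMSO only (2.50 and 2.63 kb, scores 50.96 and 167.9), and chr21:35309901-35312082 in DMSO only (2.18 kb, score 89.62). These 3 were likewise singled out after their values were seen. Calls with MC_2580 and in DMSO only were found in 1 of 24 RUNX1 regions, against 485 of 64202 over the whole lists. Calls in 1 condition only were found in 8 of 24, against 28433 of 64202. The region chr21:35155085-35163405, chosen in the same way, was called in all 5 conditions, at 4.80 kb with MC_2580, 5.48 kb with RA 0.01 µM, 8.29 kb with RA 1 µM and 6.14 kb with the combination, against 4.72 kb in DMSO. It holds an LSD1 site, chr21:35158682-35160937, with scores of 1422 with MC_2580 and 697.5 in DMSO.

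**Figure D3:**
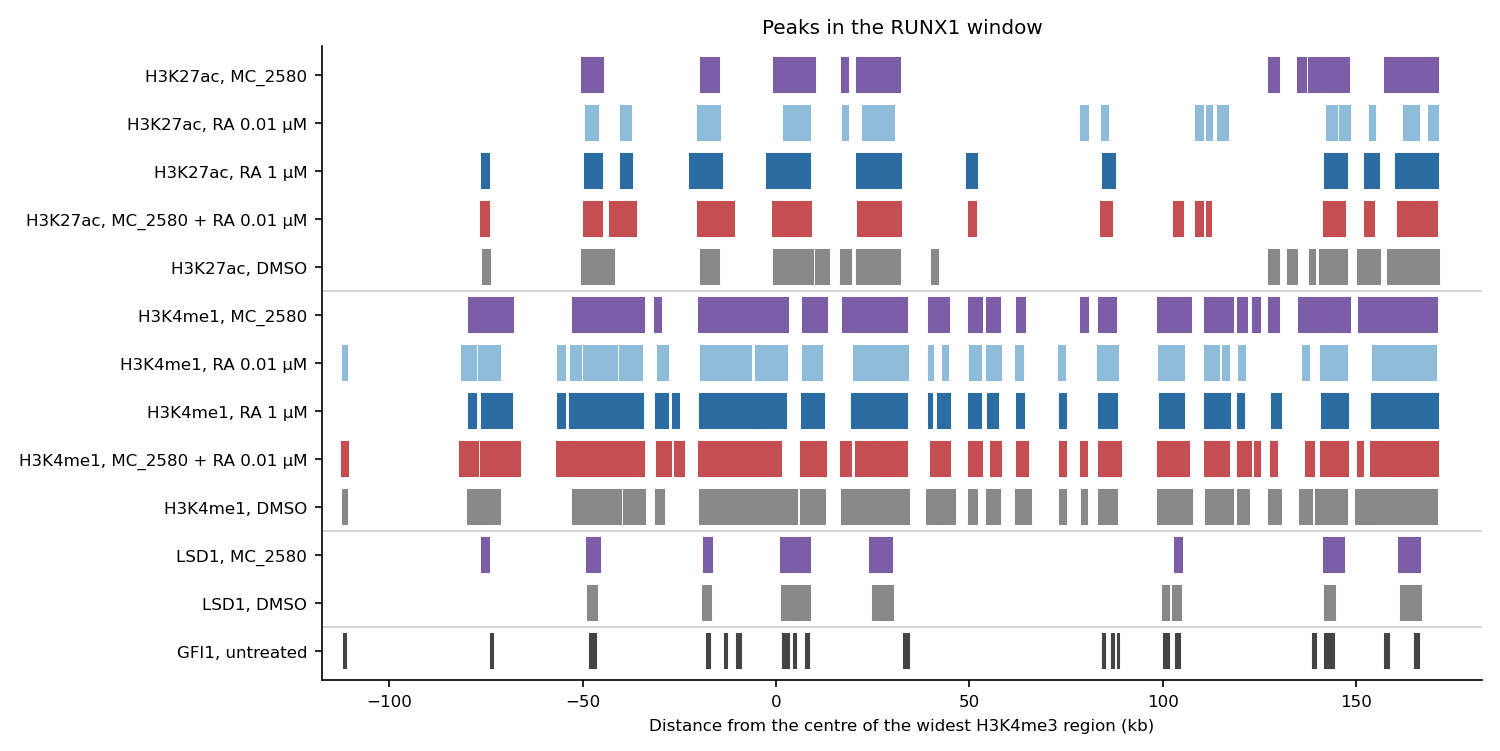
Peaks in the RUNX1 window by antibody and condition (rows, DMSO last in each histone mark), as distance in kb from the centre of the widest H3K4me3 region. H3K4me1 covers much of the window in every condition (124 to 157 kb), and the 9 merged LSD1 sites lie on it, while some H3K27ac regions are called in DMSO and not with RA, and others with RA and not in DMSO.

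KIT and MEIS1 carried little H3K27ac, and their ratios rest on a few kb. KIT held 6.17 kb with MC_2580, 8.37 kb with RA 0.01 µM, 8.58 kb with RA 1 µM and 6.95 kb with the combination, against 5.80 kb in DMSO. MEIS1 held 1.33, 2.89, 3.35 and 2.15 kb in those treatments, against 1.75 kb in DMSO. The KIT H3K4me3 region, chr4:55218089-55221098, was called in all 5 conditions, and an H3K27ac peak overlapped it with RA 0.01 µM (148) and with the combination (72.13) only. The MEIS1 H3K4me3 region, chr2:66513458-66518883, was called in all 5 conditions at 4.90 kb with MC_2580, 4.96 kb with RA 0.01 µM, 4.97 kb with RA 1 µM and 4.63 kb with the combination, against 2.93 kb in DMSO. Both genes had H3K4me3 in all 5 conditions without any LSD1 peak, and MEIS1 had 1 GFI1 peak, at a score of 57.09. With a minimum score of 100 the KIT log2 ratio for RA 1 µM was 1.44, against 0.57.

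**Figure D4:**
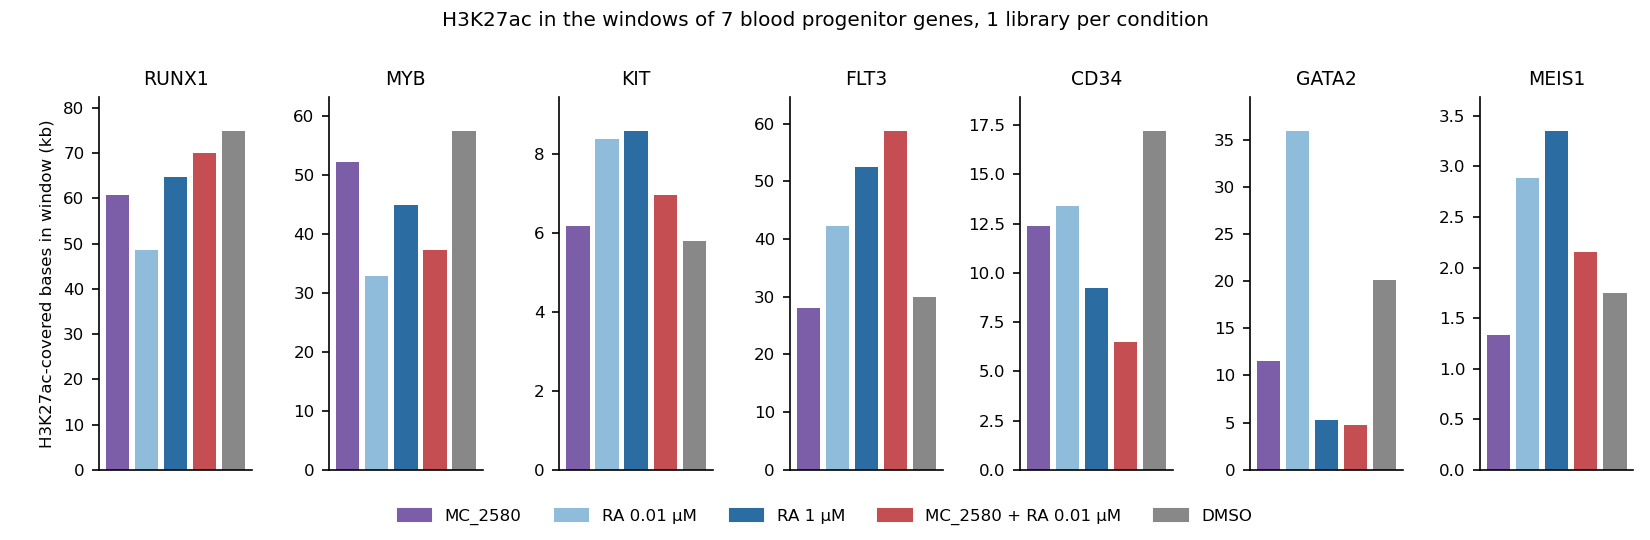
H3K27ac-covered bases in kb (vertical axes from 0, each gene on its own scale) in the windows of the 7 genes, with 1 bar per condition and 1 library per bar. FLT3 is highest with the combination (58.7 kb against 30.0 kb in DMSO), while GATA2 and CD34 are lowest with it (4.72 and 6.48 kb against 20.1 and 17.2 kb in DMSO).

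Over all 7 windows the total of H3K27ac differed less than at single genes. H3K27ac covered 172 kb with MC_2580, 184 kb with RA 0.01 µM, 189 kb with RA 1 µM and 186 kb with the combination, against 207 kb in DMSO, and all 4 ratios, 0.831, 0.890, 0.910 and 0.899, were inside the limits for a call. Other settings put 3 of them past it: MC_2580 had a log2 ratio of -0.46 with a minimum score of 100, and with lists of equal length RA 0.01 µM had -0.88 and the combination -0.36. Set against the whole lists the windows were lower by a log2 difference of -0.81 with RA 0.01 µM, -0.30 with RA 1 µM and -0.38 with the combination, and higher by 0.15 with MC_2580. H3K4me1 covered 325, 267, 288 and 330 kb in the treatments, in that order, against 324 kb in DMSO, and each ratio lay within a log2 difference of 0.06 of its whole list. Among single genes, GATA2 had the lowest H3K4me1 ratio, 0.526 with RA 0.01 µM, at 7.40 kb against 14.1 kb in DMSO.

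H3K4me3 covered 128 kb with MC_2580, 121 kb with RA 0.01 µM, 108 kb with RA 1 µM and 109 kb with the combination, against 81.0 kb in DMSO. The ratios of 1.58, 1.49, 1.34 and 1.34 were called higher, but the whole lists gave 1.57, 1.5, 1.33 and 1.32, and the log2 differences between windows and lists were 0.00, -0.01, 0.00 and 0.02. The combination was no longer called, at a log2 ratio of 0.24, with a minimum score of 100 or lists of equal length. RUNX1 and MYB make up most of these sums, and single genes departed from the lists: FLT3 had ratios of 2.95 with MC_2580 and 3.23 with the combination, while GATA2 was at 0.828 with the combination. H3K4me2 covered 76.1, 60.1, 52.9 and 73.2 kb, against 72.5 kb in DMSO, and RA 1 µM alone was called lower, at a ratio of 0.730 against 0.919 over the lists.

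**Figure D5:**
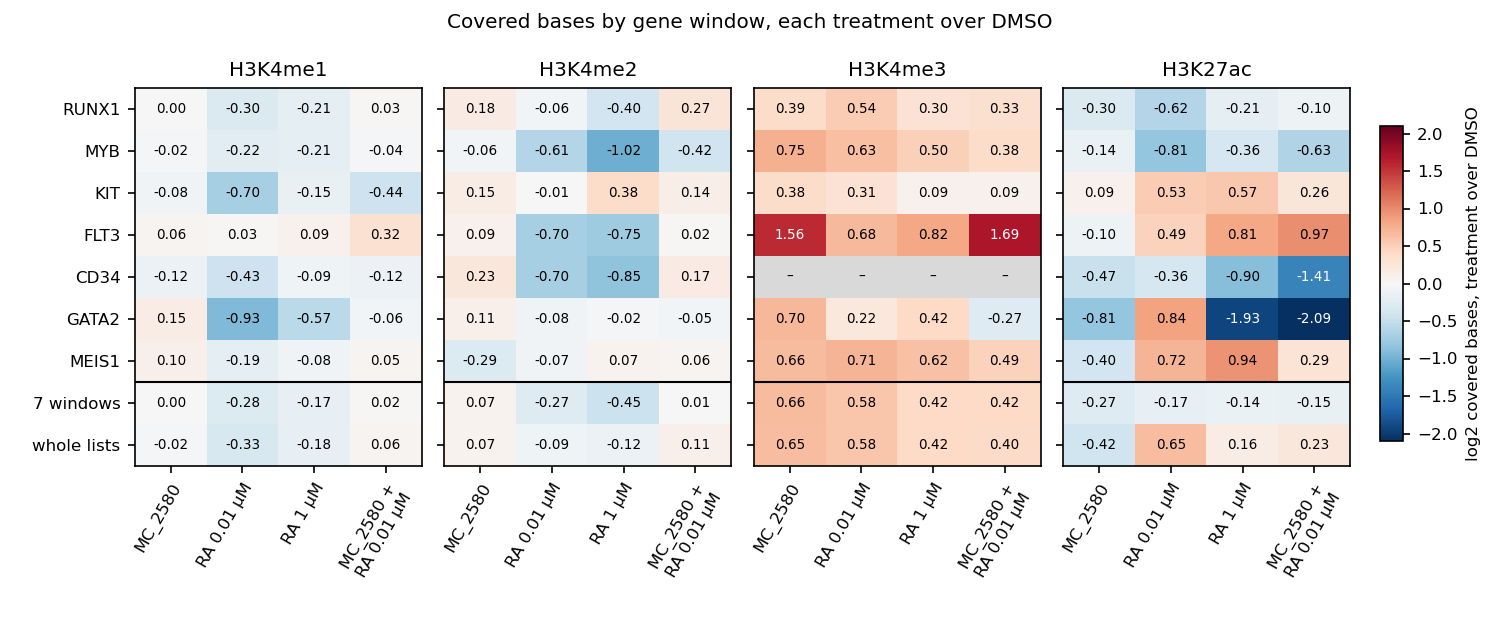
Log2 ratio of covered bases, each treatment over DMSO (columns), for the 7 gene windows, for all windows together and for the whole lists (rows), in 4 panels by histone mark; the colour scale runs from blue (lower than DMSO) to red (higher), and grey cells had no covered bases in DMSO. H3K27ac differs in sign between FLT3 (0.81 and 0.97 with RA 1 µM and the combination) and GATA2 (-1.93 and -2.09), and H3K4me3 summed over the windows is close to the whole lists.

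Peaks were also counted as gained, where a treated peak met no DMSO peak of that mark by at least 1 base, and as lost, where a DMSO peak met no treated peak. For H3K27ac, gained peaks were 3 of 39 with MC_2580 (11.2% over the whole list), 17 of 61 with RA 0.01 µM (53.9% over the list), 11 of 46 with RA 1 µM (33.3%) and 10 of 45 with the combination (37.1%). The members' own shares, 7.69%, 27.9%, 23.9% and 22.2%, were each below that of the list. Exact binomial 95% intervals, which cover counting error only, were 1.62% to 20.9% with MC_2580, 17.1% to 40.8% with RA 0.01 µM, 12.6% to 38.8% with RA 1 µM and 11.2% to 37.1% with the combination. The list's share lay above the interval with RA 0.01 µM, and with the combination it equalled the upper limit as printed. The intervals treat peaks of 1 window as independent, which neighbouring peaks need not be, so they are no test. Lost peaks were 15 of the 48 DMSO peaks with MC_2580 (35% over the list), 13 with RA 0.01 µM (18.3%), 14 with RA 1 µM (20.9%) and 17 with the combination (21.2%). The intervals of the lost shares were 18.7% to 46.3% with MC_2580, 15.3% to 41.8% with RA 0.01 µM, 17% to 44.1% with RA 1 µM and 22.2% to 50.5% with the combination. The first 3 held the share of the list, and the combination's, around 35.4%, lay above it. Of the 65 merged H3K27ac regions 24 were called in all 5 conditions, 36.9% against 23.7% over the lists.

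Most H3K4me1 peaks in these windows were shared with DMSO. Gained peaks were 3 of 59 with MC_2580 (8.54% over the list), 8 of 80 with RA 0.01 µM (11.7%), 8 of 81 with RA 1 µM (14.2%) and 11 of 82 with the combination (21.9%). Lost peaks were 6 of 66 with MC_2580 (13.1%), 11 with RA 0.01 µM (19.5%), 10 with RA 1 µM (14%) and 1 with the combination (7.79%). For all these H3K4me1 counts the share of the whole list lay inside the members' exact 95% interval. Of 65 merged H3K4me1 regions 45 were called in all 5 conditions, 69.2% against 54% over the lists.

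H3K4me3 lost no DMSO peak of 18 in any treatment, where the lists lost 2.2% with MC_2580, 3.97% with RA 0.01 µM, 6.12% with RA 1 µM and 6.29% with the combination; 0 of 18 allows a share of up to 18.5% by the exact interval. Gained H3K4me3 peaks were 9 of 26 with MC_2580 (33.5%), 8 of 25 with RA 0.01 µM (29.2%), 5 of 23 with RA 1 µM (25.6%) and 11 of 30 with the combination (26.6%). Gained H3K4me2 peaks were 14 of 61 with MC_2580 (22.3%), 3 of 33 with RA 0.01 µM (14.3%), 9 of 47 with RA 1 µM (22.1%) and 10 of 51 with the combination (23.2%). Lost H3K4me2 peaks were 4 of 43 (11%), 11 (19.7%), 13 (19.5%) and 7 (14.4%) in the same order, and MYB held 6 of the 13 lost with RA 1 µM. For all these H3K4me2 and H3K4me3 counts the share of the whole list lay inside the members' exact 95% interval. Counts of gained and lost peaks were less stable than covered bases: 87 of 136 values under other settings moved by more than 1.5-fold, so they are given as a description only.

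LSD1 peaks merged to 21 sites in 5 windows: 9 at RUNX1, 4 at MYB, 4 at FLT3, 2 at CD34 and 2 at GATA2. Of these, 16 had an LSD1 peak both with MC_2580 and in DMSO, 3 with MC_2580 only and 2 in DMSO only. Gained LSD1 peaks were 3 of 20, where the whole list had 41.4%, and lost peaks were 2 of 21, where it had 7.79%. LSD1 covered 69.3 kb with MC_2580, against 49.1 kb in DMSO, a ratio of 1.41 where the whole lists gave 1.92. Relative to the lists the log2 difference was therefore -0.44. The 2 LSD1 lists started at different scores, so their lengths may not be compared as occupancy.

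The LSD1 sites lay on histone-marked chromatin, at shares close to those of LSD1 peaks over the whole list. In DMSO all 21 peaks overlapped H3K4me1 (95.8% over the list), 17 overlapped H3K27ac (81.0% against 78.6%) and 12 overlapped H3K4me3 (57.1% against 61.6%). GFI1 met 15 of the 21 LSD1 peaks of DMSO, 71.4% (47.8% to 88.7%), against 56.8% over the list, and 13 of the 20 with MC_2580, 65.0% against 44.7%. Of the 38 GFI1 peaks, 17 met LSD1 in DMSO, 44.7% against 30% over the list, and 31 met H3K4me1, 81.6% (65.7% to 92.3%) against 58.5%. RUNX1 held 20 of the 38 GFI1 peaks, MYB 7, FLT3 5, GATA2 3, CD34 2 and MEIS1 1, and KIT none. Of the 38, 3 met no histone mark of any condition and no LSD1 peak, 7.89% (1.66% to 21.4%) against 28.1% over the list.

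The LSD1 sites with the highest score in either list carried from 2 to all 4 of the histone marks in DMSO. At RUNX1 they were chr21:35319016-35324421 (score 3100 with MC_2580 and 1521 in DMSO), chr21:35201679-35207815 (2954 and 572.7) and chr21:35128644-35131892 (1442 and 2278). H3K4me1, H3K4me2, H3K4me3 and H3K27ac were called in all 5 conditions at each of them. GFI1 was called at the first (274.6) and the third, where the highest GFI1 peak of RUNX1 lay (chr21:35129451-35130884, 650.4), and not at the second. At MYB the site chr6:135557554-135560524 scored 693.1 with MC_2580 and 330.5 in DMSO and had no GFI1 peak. At MYB the third site, chr6:135521134-135523627, scored 495.2 and 315.1 and carried H3K27ac in all 5 conditions without H3K4me2 or H3K4me3. At FLT3 the site chr13:27564120-27567349 scored 1240 with MC_2580 and 373.6 in DMSO, and H3K4me3 overlapped it with each of the 4 treatments and not in DMSO. The H3K4me3 scores were 282.1 with MC_2580, 284 with RA 0.01 µM, 192.7 with RA 1 µM and 72.23 with the combination. Over the whole treated lists, taken 1 treatment at a time, 25.6% (RA 1 µM) to 33.5% (MC_2580) of H3K4me3 peaks met no DMSO peak. The whole-list share called in all 4 treatments and not in DMSO was not measured. The FLT3 site chr13:27571297-27576329, in the widest FLT3 H3K4me3 region, scored 776.6 with MC_2580 and 337.3 in DMSO and had no GFI1 peak. At CD34 the site chr1:206111909-206114905 scored 932.4 with MC_2580 and 412.4 in DMSO, with H3K27ac in all 5 conditions and no GFI1 peak. Higher LSD1 scores with MC_2580 were not particular to these windows. Of the 16 merged sites in both LSD1 lists, 13 scored higher with MC_2580, by the highest score in each list. Over the whole lists, counted by single DMSO peaks and not by merged sites, this held for 10933 of 11584 that met an MC_2580 peak, or 94.4%.

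The sites called in 1 LSD1 list only were unlike each other. The 2 in DMSO only, chr21:35277617-35279064 at RUNX1 (353.1) and chr1:206162838-206164324 at CD34 (392.4), both had a GFI1 peak (180.8 and 120.8) and H3K4me1 in all 5 conditions, and neither had H3K27ac or H3K4me3 in any. The lowest score of the MC_2580 list, 357, lay between the scores of these 2 sites. The 3 with MC_2580 only were chr21:35101429-35103266 at RUNX1 (443.9), chr6:135416983-135418751 at MYB (421.8) and chr3:129718073-129722526 at GATA2 (610.6), and all had H3K27ac in DMSO. The site next to the RUNX1 DMSO-only one, chr21:35280145-35282380, had LSD1 with MC_2580 (638.2) and in DMSO (728.8), with GFI1 (189.2). H3K27ac was called there with the combination alone, at 231.6, on H3K4me1 that was called in all 5 conditions.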

How the data were processed

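Chromatin immunoprecipitation sequencing of NB4 cells was deposited as 23 peak lists, 1 per library, from 25 samples; 2 inputs were not analysed here. Per the submitters' processing notes, which name no order or role, the tools were bcl2fastq 2, CASAVA 1.8, FastQC 0.10.0 and 0.11.5, Bowtie 1.0.1 and MACS 1.4.1, on build hg18. Each deposited peak has a position and a score by the authors, which rises as the MACS p-value falls. The labels state no read counts, duplicate handling or use of the inputs, and the depth and precision of each library are therefore unknown.

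Peaks that overlapped a window by at least 1 base were kept, and 8 starts below 0 were set to 0. Covered bases were cut at the window's edges, while regions merged over conditions were given whole. Ratios, gained and lost peaks, and overlaps were computed with Python 3.11.15 and NumPy 2.4.6. Exact binomial 95% intervals came from SciPy 1.17.1, and figures from Matplotlib 3.10.9. Gained and lost counting was tested on simulated lists. With 1 library per group no test was run. Named regions were the widest H3K4me3 region of each window; H3K27ac regions with a top score of 300 or more, and H3K4me2 or H3K4me3 regions with 500 or more, called in some conditions only; up to 3 LSD1 sites of highest score, the highest GFI1 peak, and LSD1 sites of 1 condition only. Alternatives were a minimum score, lists cut to equal length, narrower windows, 50% reciprocal overlap, joined peaks and H3K27ac on H3K4me1. The members, lists and motifs were chosen with earlier results of these data known.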

Additional observations from a re-analysis of the deposited data

How the results depend on the processing

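With 1 library per condition no result had a replicate to leave out. No paired analysis was possible because each antibody and condition had 1 library. Depth limits nothing that can be stated, since it is unknown; the score floor of the lists and their differing lengths are the measured limits, and the score thresholds of the LSD1 lists differ. For covered bases over all 7 windows, 75 of 89 alternative values stayed within 1.5-fold and on the same side of the call. Another 12 moved by more than 1.5-fold or changed their call, and 2 reversed. By gene, 309 of 359 stayed, 46 moved and 4 reversed. A reversal was counted only where the main value was called, so an uncalled value could change sign and still count as stayed. Of 136 values of gained or lost peaks, 49 stayed within 1.5-fold. FLT3, GATA2 and CD34 H3K27ac kept direction and call with RA 1 µM and the combination in every alternative run by gene. The cause of the movements below was not tested, except that a minimum score and shorter lists remove weak peaks. Values are log2 ratios over DMSO unless counts are named. The alternatives with H3K27ac on H3K4me1 and with 1 minimum LSD1 score for covered bases were chosen after seeing the data.

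Relative to the whole lists, H3K4me3 over all windows was 0.00 with MC_2580, -0.01 with RA 0.01 µM, 0.00 with RA 1 µM and 0.02 with the combination, H3K27ac was -0.81 with RA 0.01 µM and -0.38 with the combination, and LSD1 was -0.44, with the RA 0.01 µM H3K4me3 and LSD1 values reversed. With a minimum score of 100, values over all windows were -0.34 for H3K4me1 with RA 0.01 µM, 0.24 for H3K4me3 with the combination and -0.46 for H3K27ac with MC_2580. With lists of equal length they were 0.24 for H3K4me3 with the combination, -0.88 and -0.36 for H3K27ac with RA 0.01 µM and the combination, and 0.31 for LSD1.

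By gene with a minimum score of 100, H3K4me1 was -0.35 at RUNX1 with RA 0.01 µM, and -0.09 at KIT and -0.34 at MEIS1 with the combination. H3K4me2 was 0.53 at CD34 with MC_2580, 0.07 at KIT with RA 1 µM, and -0.49 at FLT3 and 0.40 at CD34 with the combination. H3K4me3 was 0.50 at RUNX1 and 0.24 at GATA2 with RA 1 µM, and 0.20 at MYB, -0.17 at FLT3 (reversed) and -0.80 at GATA2 with the combination. H3K27ac was -0.45 at RUNX1 and -0.65 at FLT3 with MC_2580, -1.14 at CD34 with RA 0.01 µM, -0.29 at MYB, 1.44 at KIT and -1.97 at CD34 with RA 1 µM, and 0.66 at KIT and -2.30 at CD34 with the combination.

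By gene with lists of equal length, H3K4me1 was -0.34 at MEIS1 with the combination, and H3K4me2 was -0.36 at MYB and -0.35 at MEIS1 with MC_2580 and 0.07 at KIT with RA 1 µM. H3K4me3 was 0.88 at FLT3 with MC_2580, 0.24 at GATA2 with RA 1 µM, and 0.26 at RUNX1, 0.32 at MYB, -0.17 at FLT3 (reversed) and -0.46 at GATA2 with the combination. H3K27ac was 0.96 at KIT and 0.40 at FLT3 with MC_2580, 0.11 at FLT3, -6.77 at CD34 and -0.21 at GATA2 (reversed) with RA 0.01 µM, -0.29 at MYB, 1.44 at KIT and -1.97 at CD34 with RA 1 µM, and -2.30 at CD34 with the combination. LSD1 at MYB was 0.18.

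With windows narrowed by 10 kb at each end, H3K4me1 was -0.21 at CD34 with RA 0.01 µM, H3K4me3 was -0.08 at GATA2 with RA 1 µM (reversed), and H3K27ac was -0.27 at CD34 with RA 0.01 µM, -1.32 at GATA2 with RA 1 µM, and -2.72 at CD34 and -1.48 at GATA2 with the combination. With H3K27ac peaks on H3K4me1 only, GATA2 was -0.29 with MC_2580 and -1.10 with the combination. With 1 minimum score for both LSD1 lists, LSD1 was 0.44 at RUNX1 and 1.97 at MYB.

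Counts of gained peaks over the windows follow, with MC_2580, RA 0.01 µM, RA 1 µM and the combination in that order. The shares over the whole lists were not measured under these settings. The counts of gained and lost peaks here and in the next paragraph therefore cannot be set against a background. At 50% reciprocal overlap they were 10, 39, 37 and 29 for H3K4me1, 32, 10, 27 and 31 for H3K4me2, 13, 12, 10 and 16 for H3K4me3, and 9, 42, 19 and 27 for H3K27ac. With a minimum score of 100 they were 2, 6, 5 and 11, then 7, 4, 5 and 5, then 8, 6, 7 and 4, then 0, 10, 7 and 10, by mark in that order. With that minimum for the counted peak only they were 1, 3, 2 and 6, then 1, 1, 1 and 2, then 5, 3, 4 and 2, then 0, 6, 2 and 4. With peaks within 1 kb joined they were 3, 6, 7 and 10, then 9, 3, 4 and 8, then 8, 7, 5 and 10, then 1, 11, 9 and 6.

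Counts of lost peaks, in the same orders, were 17, 25, 21 and 13, then 14, 20, 23 and 23, then 5, 6, 5 and 4, then 18, 29, 21 and 29 at 50% reciprocal overlap. With a minimum score of 100 they were 5, 11, 6 and 6, then 2, 9, 10 and 3, then 0, 0, 0 and 1, then 10, 6, 8 and 11. With that minimum for the counted peak only they were 1, 5, 4 and 0, then 0, 3, 5 and 1, then 0 in each, then 3, 3, 6 and 8. With joined peaks they were 6, 5, 4 and 1, then 2, 5, 7 and 3, then 0 in each, then 11, 9, 9 and 12. LSD1 had 8 gained and 9 lost peaks at 50% reciprocal overlap, 6 and 1 with 1 minimum score, and 1 lost with narrower windows. GFI1 peaks numbered 14 with a minimum score of 100 against 38, and LSD1 peaks of DMSO with GFI1 numbered 9, against 15, with that minimum or at 50% reciprocal overlap.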

Other observations

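The GFI1 peaks with no histone mark called in any of the 5 conditions and no LSD1 peak were chr6:135503980-135504769 (score 66.41) and chr6:135590136-135590771 (54.2) at MYB, and chr2:66549982-66550584 (57.09) at MEIS1, 3 of the 38 GFI1 peaks, 7.89% against 28.1% over the whole GFI1 list. Another GFI1 peak, chr3:129672950-129673625 at GATA2 (57.14), lay on H3K27ac with RA 0.01 µM only and on no other mark. These 4 scores were close to the floor of 50, and the peaks were singled out after their values were seen.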
